A study of Arabidopsis thaliana with 8 samples.

Results

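The WUSCHEL-related homeobox (WOX) genes encode plant homeodomain transcription factors that keep stem cells of meristems undifferentiated. WUS does so in the organising centre of the shoot meristem and WOX5 in the quiescent centre of the root, while WOX4 acts in the vascular cambium. Cytokinin reaches the genome through a phosphorelay that ends at B-type response regulators such as ARR12, and in shoots and regenerating tissue these regulators are known to bind and activate WUS. The genes described here are WUS (AT2G17950), WOX4 (AT1G46480), WOX5 (AT3G11260), WOX7 (AT5G05770), WOX11 (AT3G03660), WOX13 (AT4G35550) and WOX14 (AT1G20700). They were taken by locus identifier, 7 of the 27444 nuclear protein-coding genes of Arabidopsis thaliana, and for each of them every anti-GFP summit within 5 kb of the gene is given.

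ARR12 binding was mapped by ChIP-seq, in which fixed chromatin is precipitated with an antibody and the recovered DNA is sequenced. The ARR12-GFP plants carried a GFP-tagged ARR12, and the control went through the same anti-GFP precipitation. The control is called Col-0 here, after the growth protocol, while its sample titles read GFP and its genotype label reads control, and the sources do not say whether it carried free GFP. All plants were of the Col-0 ecotype, with 5 days of stratification and a temperature of 22 °C. Root apical meristem tissue was collected 3 days post germination, and no hormone treatment is given in the labels. Each genotype had 2 anti-GFP libraries and 2 input libraries, and the values below come from the anti-GFP summit lists. The sources used here give neither the promoter of the ARR12-GFP construct nor the number of transgenic lines, nor do they say whether the replicates came from separate plantings, so the spread between them may be technical. The lists hold no expression values, so the labelled tissue was not checked against its marker genes.

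A summit is the position of the highest signal in a called peak, and its score, set by the authors' peak caller, is the −log10 of a p or q value, with no statement of which. The ARR12-GFP libraries held 8137 and 5492 nuclear summits, and the Col-0 libraries held 199 and 251. Sequencing depth is unknown from the lists. Scores are compared only within a list, as a percentile, the share of that list's nuclear summits with a score at or below the given one. A reproducible site means a place where summits of both ARR12-GFP libraries lay within 200 bp of each other, with no Col-0 summit within 200 bp. There were 3503 such sites.

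None of the 7 WOX genes had a reproducible ARR12-GFP site within 5 kb. Among all nuclear protein-coding genes 28.5% had such a site. The exact binomial 95% interval for 0 of 7 genes reaches 41.0%, which includes the background share, and it covers counting error only. WUS, WOX4, WOX5 and WOX11 had no summit of any of the 4 libraries within 5 kb. The share of all genes without a summit of any library was not computed. WOX7, WOX13 and WOX14 had summits of ARR12-GFP libraries there, 5 in all, but at none of these genes did the summits of both libraries coincide within 200 bp.

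**Figure D1:**
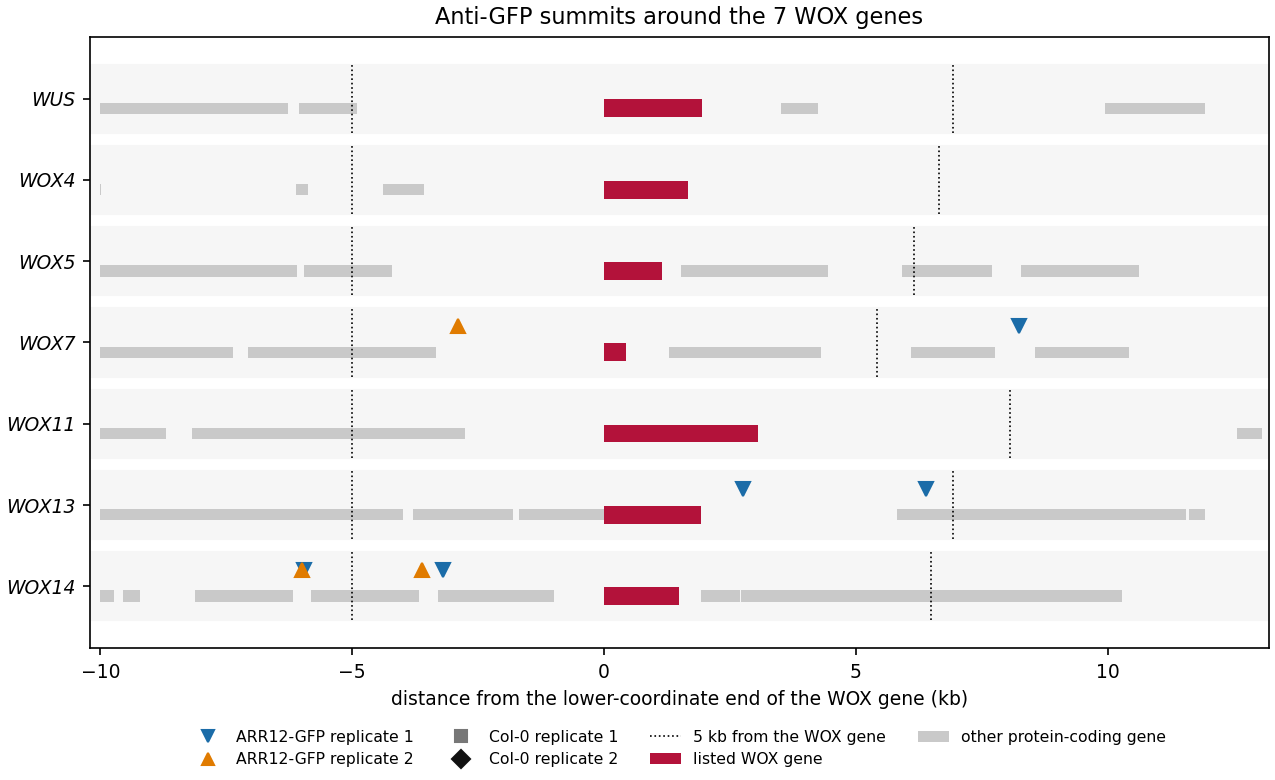
Each row is 1 WOX gene (red) with neighbouring protein-coding genes (grey), drawn to scale in kb from the lower-coordinate end of the WOX gene, with the dotted lines 5 kb from either end of the gene. Triangles mark summits of the ARR12-GFP libraries, and no square or diamond appears because no Col-0 summit lay in the drawn range. Within 5 kb only WOX7, WOX13 and WOX14 have summits, 5 in all.

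By library, 3 summits of ARR12-GFP replicate 1 and 2 of ARR12-GFP replicate 2 lay within 5 kb of the 7 genes, against 0 in each Col-0 library. The groups did not overlap. The means were 2.5 ± 0.707 (SD, n = 2) and 0 ± 0 (SD, n = 2), and a two-sided exact permutation test over the 4 libraries gave p = 0.333, the smallest p that 6 labellings allow. Summits of replicate 1 lay within 5 kb of 2 of the 7 genes (28.6%), where 50.4% of all genes had one. The same count in replicate 2, 2 of 7, stood beside 36.9% of all genes. For Col-0 replicates 1 and 2 the shares of all genes were 1.20% and 1.42%, so 0 of 7 genes is what most genes showed there. The lists differ greatly in length, and the part of depth in the difference between genotypes was not tested.

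WUS encodes the founding member of the family and is best known from the shoot meristem. Its nearest summits were the same place in both ARR12-GFP libraries, 31272 bp away in replicate 1 with a score of 25.4 (percentile 85.6) and 31290 bp away in replicate 2 with a score of 15.8 (percentile 85.1). This reproducible site, at position 7842092 of chromosome 2 in the TAIR10 build, lay inside PIN1AT (AT2G18040), a peptidyl-prolyl isomerase gene, with 12 protein-coding genes on the way from WUS when that gene is counted. The nearest Col-0 summits were 264199 and 617899 bp away. Only 20.6% of all genes had their nearest reproducible site as far away as WUS or farther, and for the nearest summit of replicate 1 the share was 6.39%. The 50 kb on either side of its midpoint held 5 and 4 summits of replicates 1 and 2, below the medians of 7 and 5 over all genes, and 4 reproducible sites, above the median of 3.

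WOX5 marks the quiescent centre, the group of rarely dividing cells that keeps the surrounding root stem cells undifferentiated. It had the same outcome as WUS within the searched distance. Its nearest summits lay 20005 bp away in replicate 1, with a score of 24.2 (percentile 84.5), and 19991 bp away in replicate 2, with a score of 9.01 (percentile 61.5). They form a site at 3507282 of chromosome 3, at 169 bp from AT3G11180, and 6 protein-coding genes lay between it and WOX5. The gap of 4208 bp to the lower-coordinate neighbour AT3G11250, which is wider than the corresponding gap of all but 10.1% of genes, held no summit, nor did the 360 bp to MEE34 on the other side. The ±50 kb region of WOX5 held 8 and 7 summits of replicates 1 and 2 and 4 reproducible sites, at or above the medians of 7, 5 and 3 over all genes. Col-0 summits lay at 144866 and 144870 bp.

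WOX7 is the gene most closely related to WOX5 and is known from lateral root development. ARR12-GFP replicate 2 had a summit 2894 bp from it, at 1731533 of chromosome 5, with a score of 8.01 (rank 2530 of 5492, percentile 54.0). This summit was nearer to another protein-coding gene, at 443 bp from SYP31 (AT5G05760), which encodes a syntaxin of the Golgi. The lncRNA gene AT5G01105 lay nearer still, at 96 bp. Replicate 1 had no summit within 5 kb, and its nearest one lay at 7822 bp on the other side of WOX7 with a score of 7.86 (percentile 36.3). The libraries therefore gave summits on opposite sides of the gene. The nearest reproducible site was 34576 bp away, inside UGT76C1 (AT5G05870), which encodes a cytokinin N-glucosyltransferase, with summit scores of 12.8 and 8.48. Col-0 summits were 1518348 and 1518347 bp away.

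WOX4, which maintains dividing cambium cells downstream of the CLE41/CLE44 peptides and their receptor PXY, had no summit within 5 kb on either side. The nearest summits were 16532 bp away in replicate 1, with a score of 25.8 (percentile 86.0), and 16665 bp away in replicate 2, with a score of 10.2 (percentile 68.8). The nearest gene to this site was HSFB4 (AT1G46264, also SCHIZORIZA), a root cell fate regulator, at 4795 bp. WOX4 lies beside a gap of 23674 bp on its higher-coordinate side, matched or exceeded by 0.776% of genes, and no anti-GFP summit of any library lay in it. Its surroundings were gene-poor, with 13 protein-coding genes in ±50 kb against a median of 28. Among the 7 genes WOX4 had the nearest Col-0 summits, 41503 bp away in both control libraries with scores of 71.6 and 66.3, at ranks 8 of 199 and 9 of 251.

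WOX14, which acts with WOX4 in vascular proliferation, was the single member with summits of both ARR12-GFP libraries within 5 kb. The share of all genes with summits of both was not computed, while 50.4% had one of replicate 1 and 36.9% one of replicate 2. Replicate 1 had a summit 3188 bp away, at 7179370 of chromosome 1, with a score of 11.97 (rank 3370 of 8137, percentile 58.6). Replicate 2 had one 3614 bp away, at 7178944, with a score of 5.42 (rank 4043 of 5492, percentile 26.4). They lay 426 bp apart and so were not joined at 200 bp. Neither had WOX14 as its nearest gene. The replicate 1 summit was inside HMGB3 (AT1G20696) and the replicate 2 summit was 49 bp from HMGB2 (AT1G20693), a pair of genes for high mobility group B chromatin proteins. A reproducible site lay just beyond the searched distance, at 5974 bp, with scores of 11.9 and 4.49, and it was 163 bp from HMGB2. Joining summits within 500 bp made the inner pair a site as well, at 3401 bp from WOX14.

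WOX13 belongs with WOX14 and WOX10 to the branch of the family that is shared with the earliest land plants. It had the nearest summit of all 7 genes and the only one for which the WOX gene was the nearest protein-coding gene. This summit of ARR12-GFP replicate 1 lay 830 bp away at 16878281 of chromosome 4, in the gap of 3884 bp before DAW1 (AT4G35560), a WD40 protein gene, with a score of 11.4 (rank 3549 of 8137, percentile 56.4). A further replicate 1 summit lay inside DAW1, 4462 bp from WOX13, with a score of 6.54 (percentile 25.7). Replicate 2 had no summit nearer than 15152 bp, where it scored 6.08 (percentile 34.6), and there it coincided with a replicate 1 summit in a site 92 bp from AT4G35510. Summits near WOX13 within 5 kb were thus found in 1 of the 2 ARR12-GFP libraries. Of all genes 22.5% had a replicate 1 summit as near as 830 bp or nearer.

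WOX11, an auxin-responsive gene of founder cells of adventitious roots, lay in the region with the fewest summits. Its nearest reproducible site was 124275 bp away (chromosome 3, position 764891), where the summits scored 27.1 and 9.03, and 2.40% of all genes were as far from a site or farther. Replicate 1 had its nearest summit at 11641 bp at percentile 40.6 of its list and replicate 2 at 62328 bp at percentile 33.1. Within ±50 kb there were 2 summits of replicate 1, none of replicate 2 and no reproducible site. The same stretch held 23 protein-coding genes, below the lower quartile of 24 over all genes. Of all genes 10.6% had no reproducible site within ±50 kb of their midpoint. The nearest Col-0 summits, 94073 and 94068 bp away, scored 78.9 and 72.8 and each ranked 6 in its list.

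**Figure D2:**
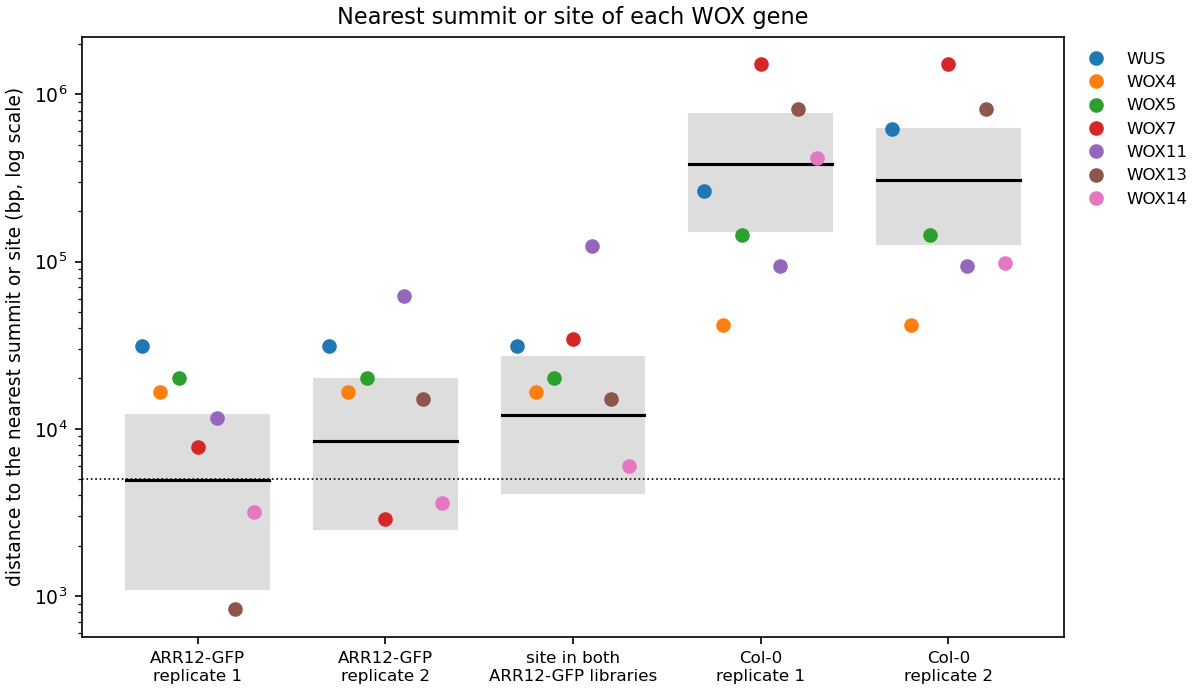
Points give the distance in bp (log axis) from each of the 7 WOX genes to the nearest summit of each library and to the nearest reproducible site, with the median (line) and the middle 50% (grey box) of all 27444 genes and a dotted line at 5 kb. For the reproducible sites 6 of the 7 genes lie above the median of 12095 bp and all lie above the dotted line.

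Over the 7 genes the distance to the nearest reproducible site ran from 5974 bp at WOX14 to 124275 bp at WOX11, with a median of 19998 bp against 12095 bp over all genes. The order from near to far was WOX14, WOX13, WOX4, WOX5, WUS, WOX7 and WOX11. The closest neighbours in this order, WOX13 and WOX4, differed by 1438 bp. The place of WOX4 depended on the joining distance, since with joining within 100 bp its nearest site was 43569 bp away, behind WOX5, WUS and WOX7. The paired summits within the 7 sites lay 14 to 133 bp apart. Joining within 200 bp limits this spacing, although the best summits of a chain of joined summits can lie farther apart. For single libraries the medians of the 7 genes were 11641 bp in replicate 1 and 16665 bp in replicate 2, against 4923 and 8479 bp over all genes, and in each library 5 of the 7 genes lay above the median of all genes. In Col-0, 3 of the 7 genes lay above it in each replicate. The number of reproducible sites in ±50 kb ran from 0 to 4, with the same median of 3 in the 7 genes and in all genes. WOX11 with 0 and WOX7 with 1 were the lowest. The nearest site of each of the 7 genes lay beyond 5 kb and was nearer to another gene. Protein-coding genes on the way numbered from 2 at WOX14 to 40 at WOX11. The share of all genes whose nearest site was nearer to another gene was not computed. Of all genes, 10.5% were the nearest gene to a site within 5 kb.

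Most of the 7 genes were bordered by wide gaps when both sides were added, though not on each side. WOX13 overlapped its lower-coordinate neighbour AT4G35540. The higher-coordinate gaps of WOX5 (360 bp) and WOX14 (428 bp) were below the median of 649 bp over all genes. The sum of the gaps to the neighbouring protein-coding genes on either side had a median of 4568 bp, against 1833 bp over all genes, and it was above that median at 6 of 7 genes, WOX14 being the exception with 1411 bp. The genes themselves were 429 to 3064 bp long. These gaps held 2 summits in all, the replicate 2 summit between SYP31 and WOX7 and the replicate 1 summit between WOX13 and DAW1, and none of a Col-0 library. The latter was the only one that lay nearer to the WOX gene than to the neighbour. Summits in the gaps beside all genes were not counted, so the number in these gaps has no background to compare with. Strand is not given in the gene table used, so the 5′ and 3′ sides of the genes are not told apart.

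The scores near the WOX genes were middling. The 3 summits of replicate 1 within 5 kb had percentiles of 25.7, 56.4 and 58.6, and the 2 of replicate 2 had 26.4 and 54.0. The more distant nearest reproducible sites had replicate 1 percentiles of 84.5 to 87.4 at WUS, WOX4, WOX5 and WOX11 and of 42.1 to 61.7 at WOX13, WOX14 and WOX7. In replicate 2 the same sites were less apart, at percentiles of 61.5 to 85.1 for the first 4 genes and of 14.8 to 57.5 for the other 3. With a library that had no summit within 5 kb counted as percentile 0, WOX14 had the highest mean of the best percentiles in both ARR12-GFP libraries, 42.5. It led by having a summit in both, since in replicate 2 the summit near WOX7 stood higher, at 54.0 against 26.4. Genes like WOX14 were sought by Euclidean distance over the 4 libraries between best score percentiles within 5 kb. Genes that share a summit with WOX14 were left out of this search. The closest of the rest were AT3G21540 and DMP2 (AT3G21550), at a distance of 0.652 percentile points, and LCR35 (AT2G22121), at 1.91. The first pair are neighbouring loci with identical values. This likeness is over 4 libraries only, and Col-0 contributed no summit to any of them.

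Among the remaining 8 WOX genes, WOX6 (AT2G01500, also PFS2), which acts in ovule development, was the single gene with a reproducible site within 5 kb, 1 of 8 (12.5%, exact binomial 95% interval 0.316 to 52.7) against 28.5% of all genes. The site lay 2267 bp from WOX6 at 228501 of chromosome 2 and was nearer to CLE16, at 76 bp. Its summits scored 10.8 (percentile 53.8) in replicate 1 and 3.25 (percentile 2.79) in replicate 2, so in the latter list it stood close to the bottom. Summits of replicate 1 were found within 5 kb of 4 of the 8 genes (WOX1, WOX6, WOX9 and WOX12) and summits of replicate 2 only of WOX6, beside 50.4% and 36.9% of all genes, and no Col-0 summit was found. WOX10, the neighbour of WOX14, had none, and its nearest reproducible site was the one at HMGB2, 7901 bp away. Within 1500 bp no gene of the whole family, 0 of 15 (interval up to 21.8%), had a reproducible site, against 14% of all genes. Within 3000 bp WOX6 was the only one (all genes 20.4%), and within 10 kb the count was 5 of 15 (33.3%, interval 11.8 to 61.6) against 44.6%. These were WOX14, 1 of the 7 genes (14.3%), and WOX1, WOX2, WOX6 and WOX10, 4 of the other 8 (50%), and the difference between the 2 lists was not tested. WOX14 and WOX10 were counted through the same site at HMGB2, although the interval treats the genes as independent.

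**Figure D3:**
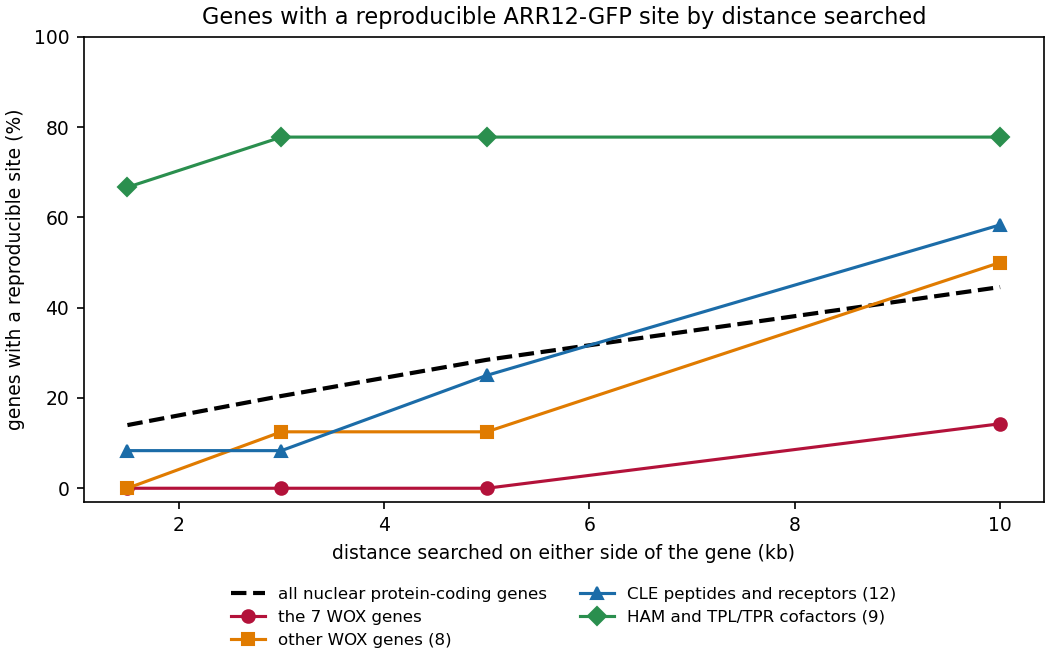
The share of genes with a reproducible site (%) is plotted against the distance searched on either side of the gene (kb) for the 7 WOX genes, the other WOX genes, CLE peptides with their receptors and the HAM and TPL/TPR cofactors, with all 27444 genes as a dashed line. The 7 WOX genes stay at 0% up to 5 kb and reach 14.3% at 10 kb, while the cofactors are at 66.7% at 1.5 kb and 77.8% from 3 kb on.

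Genes whose products work with WOX proteins were looked at next. WUS and its relatives recruit TOPLESS (TPL) and the TOPLESS-RELATED (TPR) corepressors, and they act with HAIRY MERISTEM (HAM) proteins, GRAS-family cofactors. Of these 9 genes 7 had a reproducible site within 5 kb (77.8%, interval 39.99 to 97.2; all genes 28.5%) and 6 within 1500 bp (66.7%, interval 29.9 to 92.5; all genes 14%). For all 7 the cofactor gene was the protein-coding gene nearest to a site, which held for 10.5% of all genes. At TPL, TPR2 and TPR3 a lncRNA gene lay nearer to both summits. This is a description of counts. The cofactor list was chosen with earlier results of these data known, so the intervals cover counting error only and are not a test. The differences from all genes and from the WOX genes were not tested. TPL and TPR genes are long, 6217 to 8213 bp against a median of 2078 bp over all genes and 429 to 3064 bp for the WOX genes, so the searched region was larger for them.

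TPL (AT1G15750) had a site at a distance of 480 bp (chromosome 1, position 5421513), and its summit scored 29.2 in either library (percentiles 88.6 and 96.7). TPR1 (AT1G80490) had 3 sites, the nearest at 181 bp with scores of 27.1 and 20.3 (percentiles 87.3 and 90.9). TPR2 (AT3G16830) had a site at 479 bp with scores of 33.9 and 13.3, and the site of TPR3 (AT5G27030) at 232 bp scored 30.6 and 15.6. In both lists the nearest sites of these 4 genes stood at or above percentile 79.4, above every summit within 5 kb of the 7 WOX genes. The sites needed summits of both libraries, while no summit near the WOX genes was joined, so the 2 sets passed different filters. Their score difference was not tested. The further sites of TPR1 stood lower, at 2076 bp (percentiles 75.4 and 28.8) and 2748 bp (54.8 and 78.6). TPR4 (AT3G15880) had no summit of any library within 5 kb, and its nearest site was 12449 bp away.

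HAM1 (AT2G45160) held a site inside the gene, with scores of 18.0 and 9.08 (percentiles 75.6 and 62.0), and a further one at 979 bp. HAM3 (AT4G00150) had a site at 31 bp with scores of 23.0 and 9.08, and HAM4 (AT4G36710) had a weaker one at 2336 bp with scores of 8.57 and 3.71 (percentiles 41.1 and 6.35). HAM2 (AT3G60630) had 3 summits of replicate 1 and 1 of replicate 2 within 5 kb, none of them within 200 bp of each other, so it had no reproducible site there. None of the 9 cofactor genes had a Col-0 summit within 5 kb.

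**Figure D4:**
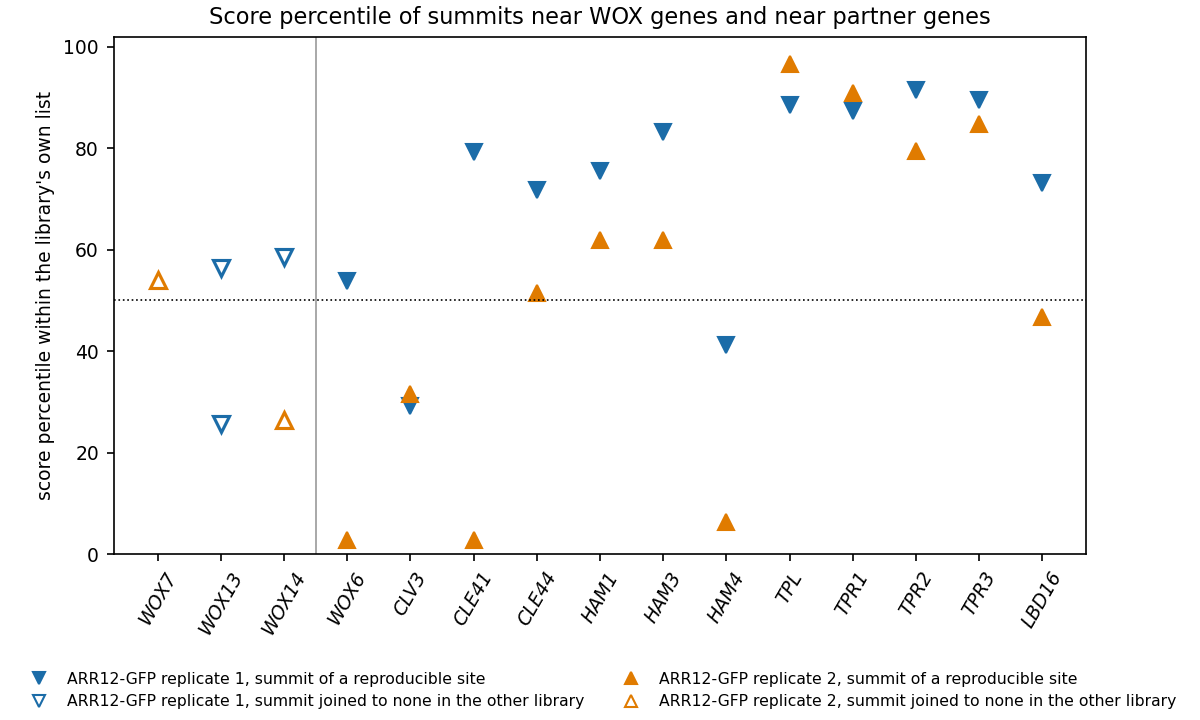
The score percentile within each ARR12-GFP list is shown for every summit within 5 kb of WOX7, WOX13 and WOX14 (open symbols, not joined to a summit of the other library) and for the nearest reproducible site of the other WOX and partner genes that had one within 5 kb (filled symbols), with the list median dotted. The nearest sites of TPL, TPR1, TPR2 and TPR3 are at percentile 79.4 or higher in both lists, and no summit near the 3 WOX genes exceeds 58.6. In replicate 2 the sites of WOX6, CLE41 and HAM4 are at percentile 6.35 or lower.

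CLE peptides and the receptors that limit or sustain WOX expression were near the background, with 3 of 12 genes having a site within 5 kb (25%, interval 5.49 to 57.2; all genes 28.5%). CLE41 (AT3G24770), which encodes the vascular peptide that sustains WOX4 expression, had a site 24 bp away, with a score of 20.1 (percentile 79.3) in replicate 1 and of 3.22 (percentile 2.68) in replicate 2. CLE44 (AT4G13195), which encodes the same mature peptide, had a site at 3455 bp with scores of 16.1 and 7.68, nearer to AT4G13180. CLV3 (AT2G27250), the shoot peptide that restricts WUS, had a site at 3680 bp whose summits scored 6.97 and 5.79, nearer to AT2G27260. CLE40, the root peptide that acts on WOX5, its receptor ACR4, and the receptor genes CLV1, CLV2, BAM1, BAM2, BAM3 and PXY had no site. Unjoined ARR12-GFP summits lay within 5 kb of CLE40 (replicate 1), BAM3 (replicate 2), and CLV1 and BAM1 (both libraries). Joining within 500 bp gave BAM1 a site as well, making 4 of 12 genes against 31.6% of all genes. CRN (AT5G13290), which encodes a membrane partner of CLV2, went the other way: it held a Col-0 summit inside the gene, at position 4254793 of chromosome 5 in both control libraries with scores of 24.9 and 27.7, and no ARR12-GFP summit within 5 kb. Of 3 genes known to act downstream of WOX proteins, LBD16 (AT2G42430), which is activated by WOX11 in rooting, had a site at 2581 bp. The summits of that site scored 16.7 and 7.20, and the site was nearer to ASL15. CDF4 and LBD29 had no site, though a replicate 2 summit lay 2416 bp from CDF4.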

How the data were processed

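Anti-GFP ChIP-seq libraries of ARR12-GFP and control root meristems, 2 per genotype, were used as deposited summit lists. Input libraries were not used here. Per the submitters' processing notes, FastQC 0.11.2, Bowtie 1.1.1, SAMtools, MACS2 2.1.0 and the TAIR10 build were used, without settings in the sources used here. Each list numbers its own library's peaks from 1, so peaks were called per library. The authors' deposited score is the −log10 of either a p-value or a q-value, not stated which.

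Genes came from a RefSeq table of assembly TAIR10.1, which matched all 39 listed loci and was used for distances only. As a check of its fit to the summits, replicate 1 summits were moved by steps of 100 bp in 20 chromosome segments. The share inside genes was lowest at moves of -100 to 100 bp in every segment, and it was 29.2% unmoved against 57.9% and 57.4% after moves of -2000 and 2000 bp. No sequence was used.

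ARR12-GFP summits were joined by single linkage within 200 bp, and the site position is the midpoint of each library's best summit. Counts are set beside all 27444 nuclear protein-coding genes, with exact Clopper-Pearson intervals. The members and the lists of WOX, peptide, receptor and cofactor genes were chosen with earlier results of these data known. Named were all members, listed genes with a site within 5 kb, and genes nearer than a member to its summits. Also named were the 3 genes most like the leading member among genes that share none of its summits. Genes at more distant sites or with Col-0 summits were named after their values were seen. The code was tested on simulated lists. Software was pandas 2.3.3 with NumPy 2.4.6 and SciPy 1.17.1 under Python 3.11.15, and figures were drawn in matplotlib 3.10.9.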

Additional observations from a re-analysis of the deposited data

How the results depend on the processing

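The count of 0 WOX genes of 7 with a reproducible site within 5 kb was also 0 with 1500 bp (all genes 14%) and 3000 bp (20.4%) searched. It was 0 with summits at or above their list's median (all genes 16.7%) and with joining within 100 bp (23.5%). Without either or both Col-0 lists it was 0 as well (all genes 28.5 to 28.9%). Where the WOX gene had to be the nearest gene it was again 0, beside 10.5% of all genes. The count was 1 (WOX14) with 10000 bp searched (all genes 44.6%) and 1 (WOX14) with joining within 500 bp (31.6%). Leaving out 1 library at a time gave 0 to 2 genes: 2 without ARR12-GFP replicate 1 (WOX7 and WOX14, all genes 36.5%) and 2 without replicate 2 (WOX13 and WOX14, all genes 49.97%). Of the 32 other WOX and partner genes, 12 had a site (all genes 28.5%). The count was 7 over 1500 bp (all genes 14%), 19 over 10000 bp (44.6%) and 7 over the higher-scoring summits (16.7%). With a library left out it was 12 to 19, with 17 without ARR12-GFP replicate 1 (36.5% of all genes) and 19 without replicate 2 (49.97%). The cofactor count of 7 ran from 5 to 8. It was 5 with joining within 100 bp, without HAM3 and TPR3 (all genes 23.5%). On either ARR12-GFP library alone it was 8 (all genes 36.5% without replicate 1 and 49.97% without replicate 2). The nearest site of WOX4 moved to 43569 bp with joining within 100 bp.

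The difference of 2.5 summits per library between genotypes was 0.5 with 1500 bp searched, 1 with 3000 bp and 4 with 10000 bp. It was 1.5 over the higher-scoring summits and 2 to 3 with a library left out. Every exact permutation p was 0.333 or above. With the replicate block (the replicate number pairing the libraries) the difference was again 2.5, with an exact p of 0.5, the smallest that 2 pairs allow. The labels do not say that a number marks a shared batch. Read depth, which the lists do not give, limits all counts.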
